A study of Mus musculus with 9 samples.

Results

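The circadian output genes of the mouse sublingual gland, the mucous salivary gland under the tongue, were followed in control tissue and after irradiation. They were taken as a fixed list of 9 genes that lie downstream of the core clock loop: Dbp, Tef, Hlf, Nfil3, Ciart, Bhlhe40, Bhlhe41, Usp2 and Wee1. All 9 were found by symbol among the 54532 genes counted, and all 9 passed the filter on low counts that left 15348 genes for testing. RNA-seq was run on wild-type (WT) glands in 3 groups of 3 libraries: glands that received no radiation, and glands taken 7 or 14 days after irradiation with 10 Gy. Total RNA came from tissue sections, so every value is a mixture of all cells in the section, and fewer cells of a type cannot be told apart from less RNA per cell. The labels name no strain, age or time of day at collection, and do not tie the numbered libraries to separate animals, so a p-value here reflects the variation among libraries, which may be technical. They also do not separate irradiation from the hour of collection in any comparison of groups below. The part of the hour of collection in those differences was not tested.

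The circadian clock is a feedback loop in which CLOCK and BMAL1 (gene Arntl) switch on genes through a short DNA element, the E-box, and the PER and CRY proteins they induce inhibit them in turn. Output genes pass the rhythm on. The related factors DBP, TEF and HLF, the PAR bZip family, activate genes through the D-box element, and NFIL3 represses genes through the same element. CIART (also called CHRONO), BHLHE40 (DEC1) and BHLHE41 (DEC2) repress transcription driven by CLOCK and BMAL1, USP2 removes ubiquitin from proteins that include clock components, and WEE1 is a kinase that holds back entry into mitosis. Clock genes are known to be expressed in rhythm in mouse salivary glands.

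Total counts ran from 15962399 to 19441239 a library, and the floor of 3 counts lay at 0.154 to 0.188 CPM. CPM divides counts by the library size, which below is adjusted by the TMM method for differences in composition. Control library 3 stood apart in its weight: leaving it out raised the number of genes called between day 14 and control from 270 to 1937, so the calls of the 9 genes and of the pathway genes in that comparison are also given without it. The tissue label was checked against marker genes. The summed level of 6 mucous acinar markers, among them Muc19 and Aqp5, was 73494 to 96063 CPM in controls, 55689 to 61296 CPM at day 7 and 69212 to 75000 CPM at day 14. Control library 3 held the lowest of the control values. The 5 skeletal muscle markers summed to between 2.68 and 5.71 CPM over all libraries.

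The start regions of the members were read for clock elements, since the core loop reaches its targets through them. Sequences were those of RefSeq on GRCm38.p6, and 7 of the 9 genes had 1 or more windows of 300 bases, 250 before and 50 after a transcription start, 8 windows in all. Bhlhe40 and Wee1 were without one. The E-box CACGTG stood in 4 of the 8 windows and in 3 of the 7 genes, against 7.15% of all 32851 start windows of the same length. Ciart held 3 E-boxes, whose first bases lay 116, 58 and 44 bases before the start, both starts of Tef held 1 (at 127 and 138 bases before) and Bhlhe41 held 1 (at 153 bases before). The element AGGTCA, which ROR and REV-ERB receptors recognise, was found once, on the reverse strand 12 bases before the start of Nfil3, against 16.3% of all windows. The D-box (TTATGTAA or TTACGTAA, in 1.06% of windows) and the variant E-box CACGTT (in 4.68%) had no match in the 8 windows, and the windows of Dbp, Hlf and Usp2 matched none of these motifs. Both strands were searched, no motif contains another, and a match is a run of letters, not a site shown to be bound. The stretches that held a match are shown because they differ in the number and place of the E-boxes. They run 5′ to 3′ on the strand of the gene, with the matches in capitals. Those of Ciart (227 bases, chr3:95882252-95882478, minus strand) and Bhlhe41 (112 bases, chr6:145865559-145865670, minus strand) end where GENCODE M21 places the first exon of the gene. The stretch of 250 bases before the downstream RefSeq start of Tef (chr15:81811164-81811413, plus strand) lies inside the gene and overlaps no exon of it in GENCODE M21. The matches at the upstream start of Tef (chr15:81802534-81802563, plus strand) and at Nfil3 (chr13:52981040-52981069, minus strand) lie within the first exon of GENCODE M21, and 30 bases around each are given.
Ciart: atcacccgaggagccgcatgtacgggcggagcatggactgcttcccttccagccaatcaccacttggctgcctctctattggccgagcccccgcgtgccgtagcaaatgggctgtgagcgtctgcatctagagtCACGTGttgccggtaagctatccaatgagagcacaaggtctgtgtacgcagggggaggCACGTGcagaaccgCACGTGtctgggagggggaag
Tef, upstream start: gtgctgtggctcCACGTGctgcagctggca
Tef, downstream start: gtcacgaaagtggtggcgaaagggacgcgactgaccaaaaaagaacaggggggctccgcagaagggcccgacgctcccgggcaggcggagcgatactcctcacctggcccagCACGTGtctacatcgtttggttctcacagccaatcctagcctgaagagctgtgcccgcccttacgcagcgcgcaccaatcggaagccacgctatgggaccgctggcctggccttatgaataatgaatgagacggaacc
Bhlhe41: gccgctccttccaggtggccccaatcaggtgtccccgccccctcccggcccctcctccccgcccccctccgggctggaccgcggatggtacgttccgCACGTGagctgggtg
Nfil3: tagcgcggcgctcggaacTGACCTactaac

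At day 7 after irradiation, 8 of the 9 genes rose against control and Nfil3 fell, all 9 past an adjusted p of 0.05 in edgeR's quasi-likelihood test with Benjamini-Hochberg adjustment over 15348 genes. In that comparison 30.6% of all genes tested were called, 15.8% higher and 14.8% lower. The libraries of the 2 groups did not overlap for any member, which was also so for 43.9% of all genes (22.2% with day 7 higher and 21.7% with day 7 lower). The median log2 fold change of the members was 1.28, beside 0.021 over all genes. All 9 calls were kept in each of the 18 alternatives run, which included the removal of each library in turn.

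**Figure D1:**
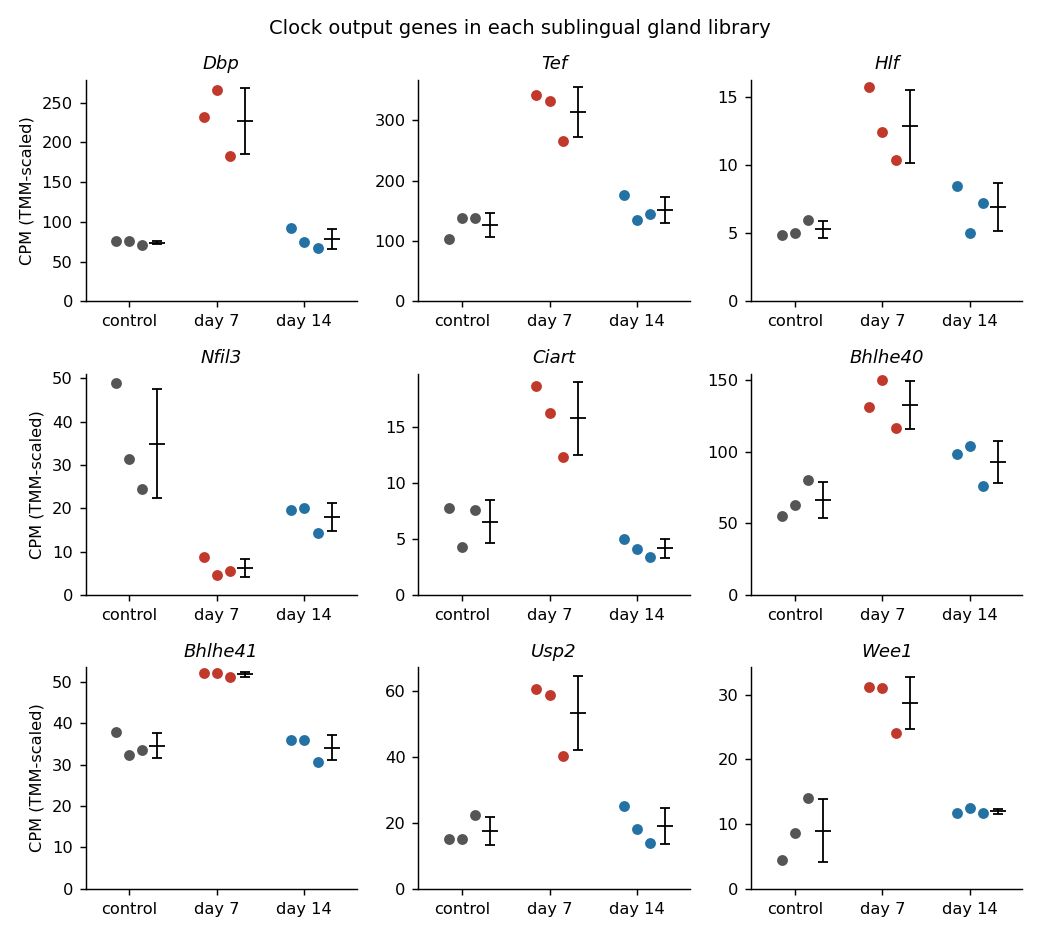
TMM-scaled CPM of the 9 genes (vertical axis, linear from 0, its own scale for each gene) in the 3 control, 3 day 7 and 3 day 14 libraries; points are libraries and bars are the mean ± SD. The day 7 libraries lie above all others for 8 genes and below all others for Nfil3, whose mean is 6.30 CPM at day 7 and 34.9 CPM in controls.

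Dbp, the PAR bZip factor with the widest daily swing in many mouse tissues, changed with the smallest p of the 9. Its gene (ENSMUSG00000059824) lies on chromosome 7 at 45705088 to 45710203, plus strand, in GENCODE M21 on GRCm38, the build used for every locus given here. Dbp measured 75.3, 75.4 and 71.2 CPM in control libraries 1 to 3, 232, 266 and 183 CPM in day 7 libraries 1 to 3, and 92.1, 74.9 and 67.2 CPM in day 14 libraries 1 to 3. The lowest day 7 library was above every other library, and day 14 overlapped control. The rise at day 7 was 3.07-fold (log2 fold change 1.62, SE 0.131, edgeR adjusted p = 1.22e-06), which placed Dbp at rank 11 of all genes by p. At day 14 Dbp was 0.08 above control on the log2 scale (95% interval −0.20 to 0.35, edgeR adjusted p = 0.774) and 1.54 below day 7 (edgeR adjusted p = 5.29e-06, rank 5 of all genes). Dbp shares 737 bases with Sphk2 on the other strand, counted at 862 to 1305 reads a library, and without the strand setting of the counts reads of the shared bases cannot be told apart.

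Tef (ENSMUSG00000022389, chromosome 15, 81802421 to 81826863, plus strand), the second D-box activator, was the member with the highest CPM. It measured 104, 138 and 138 CPM in control libraries 1 to 3, 342, 332 and 266 CPM at day 7, and 176, 134 and 146 CPM at day 14. Its day 7 libraries stood above the rest, and its day 14 libraries overlapped control from within and above. The day 7 rise was 2.47-fold (log2 1.31, SE 0.131, edgeR adjusted p = 1.32e-05). Hlf (ENSMUSG00000003949, chromosome 11, 90336536 to 90390895, minus strand), the third PAR bZip activator, was far lower in level, at 4.88, 4.99 and 5.996 CPM in controls, 15.7, 12.5 and 10.4 CPM at day 7 and 8.47, 4.99 and 7.26 CPM at day 14. It rose 2.43-fold at day 7 (log2 1.28, SE 0.219, edgeR adjusted p = 0.000311), again with no overlap with control. From day 7 to day 14 Tef fell by 1.04 (SE 0.130, edgeR adjusted p = 0.000239) and Hlf fell by 0.90 (SE 0.214, edgeR adjusted p = 0.0173) on the log2 scale. The Hlf call between the 2 times was lost when day 7 library 1, day 7 library 2 or day 14 library 2 was left out, with an edgeR adjusted p up to 0.112.

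Nfil3 (ENSMUSG00000056749, chromosome 13, 52967209 to 52981073, minus strand), the repressor that shares the D-box with these activators, moved the other way. It measured 48.9, 31.5 and 24.4 CPM in control libraries 1 to 3, 8.69, 4.61 and 5.59 CPM at day 7 and 19.6, 20.1 and 14.4 CPM at day 14. The 3 groups did not overlap one another: every control library was above every day 14 library, and every day 14 library was above every day 7 library. At day 7 the level was 5.54-fold lower than in controls (log2 −2.47, SE 0.298, edgeR adjusted p = 0.000228). At day 14 it was 1.52 above day 7 on the log2 scale (SE 0.297, edgeR adjusted p = 0.0166), a call lost without day 7 library 2 or 3 or day 14 library 1 or 2 (edgeR adjusted p up to 0.0949). Its level also varied among controls, where library 1 was the highest.

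Nfil3 is known also as a factor of lymphocyte and natural killer cell development in mice, so the levels of immune markers are given beside it. Of the 9 immune markers tested, 2 were called at day 7, where 30.6% of all genes were. The 4 macrophage markers summed to 72.8 to 78.4 CPM in controls, 43.6 to 69.9 CPM at day 7 and 94.4 to 107 CPM at day 14, and 1 of the 4, C1qa, was called lower at day 7. The 5 T and NK cell markers summed to 2.496 to 2.77, 1.15 to 2.01 and 2.02 to 4.93 CPM, with Cd3e and Cd3d too low to be tested. The 4 B and plasma cell markers ran from 33.1 to 192 CPM in controls, 3.13 to 39.6 CPM at day 7 and 6.66 to 156 CPM at day 14, and 1 of the 2 tested, Mzb1, was called lower at day 7. The part of these cells in the Nfil3 result was not tested.

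The balance of D-box activators and repressor was described per length of exon, so that genes could be compared. The summed level of Dbp, Tef and Hlf was 41.6 ± 2.25 CPM per kb of exon in controls (mean ± SD of 3 libraries). It reached 118 ± 18.97 at day 7 and was 46.5 ± 6.93 at day 14. Divided by the Nfil3 level per kb, it gave 1.62, 2.80 and 3.51 in control libraries 1 to 3, 28.7, 58.4 and 34.9 at day 7, and 5.62, 4.31 and 5.93 at day 14. The 3 groups did not overlap, with the day 7 ratios above all others and the day 14 ratios above all controls. Dbp held a mean of 59.5% of the summed activator level in controls, 64.3% at day 7 and 56.1% at day 14, while Hlf held 1.90%, 1.64% and 2.22%. For Dbp the libraries ran from 56.3% to 64.3%, 62.8% to 66.9% and 53.4% to 58.4%, and controls overlapped both other groups. For Hlf they ran from 1.72% to 2.13%, 1.40% to 1.91% and 1.74% to 2.58%, and all 3 groups overlapped. These ratios combine values already tested gene by gene and are given as a description.

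**Figure D2:**
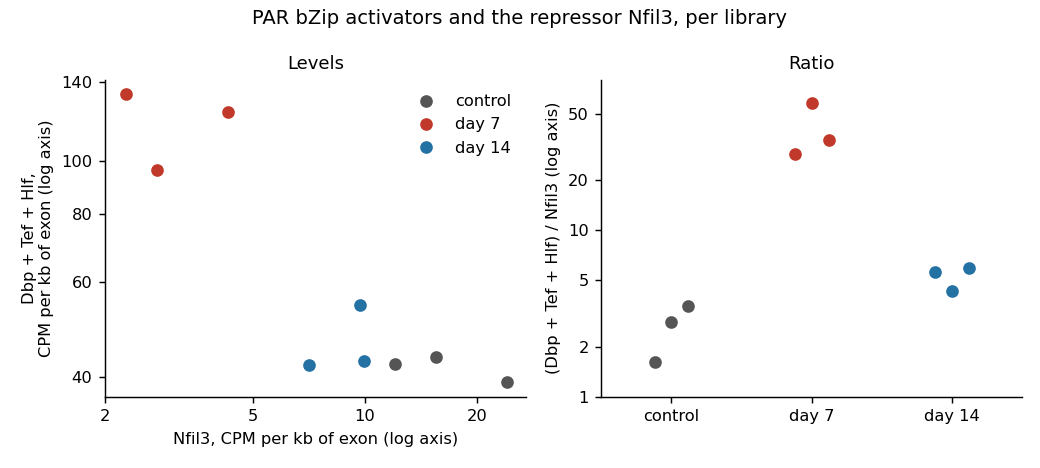
Left, summed level of Dbp, Tef and Hlf against the level of Nfil3 in each library (CPM per kb of exon, both axes log); right, their ratio by group (log axis), with points for libraries. The day 7 libraries have ratios of 28.7 to 58.4, the controls 1.62 to 3.51 and the day 14 libraries 4.31 to 5.93.

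Of the 3 repressors of the core loop, Ciart had the largest log2 difference between the 2 times after irradiation. Ciart (ENSMUSG00000038550, chromosome 3, 95878503 to 95882251, minus strand), the gene with 3 E-boxes in the sequence given above, measured 7.74, 4.32 and 7.58 CPM in control libraries 1 to 3, 18.7, 16.3 and 12.3 CPM at day 7 and 5.02, 4.09 and 3.36 CPM at day 14. Day 7 was above all other libraries, and 2 of the 3 day 14 libraries were below every control. It rose 2.40-fold at day 7 (log2 1.26, SE 0.229, edgeR adjusted p = 0.000505) and fell by 1.92 on the log2 scale from day 7 to day 14 (SE 0.236, edgeR adjusted p = 9.92e-05), rank 18 of all genes. Against control its day 14 value was −0.66 on the log2 scale (95% interval −1.17 to −0.16, edgeR adjusted p = 0.124). All 3749 bases of the gene lie opposite C920021L13Rik, an antisense gene counted at 13 to 33 reads a library. Bhlhe41 shares 1876 bases with Gm43909 on the other strand (12 to 41 reads), and Tef, Bhlhe40, Usp2 and Wee1 also have such partners, each counted at no more than 15 reads a library.

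Bhlhe40 and Bhlhe41, paired repressors that bind E-boxes, had the smallest log2 changes of the 9 at day 7, though differences between genes were not tested. Bhlhe40 (ENSMUSG00000030103, chromosome 6, 108660629 to 108666925, plus strand) measured 55.3, 62.9 and 80.2 CPM in control libraries 1 to 3, 131, 149 and 116 CPM at day 7 and 98.2, 104 and 76.3 CPM at day 14. Its day 14 libraries lay between the others, with only library 3 inside the range of control. The rise at day 7 was 2.00-fold (log2 1.00, SE 0.144, edgeR adjusted p = 0.000164), and the fall from day 7 to day 14 was −0.51 on the log2 scale (SE 0.142, edgeR adjusted p = 0.0441). That fall lost its call in 7 of 18 alternatives, 5 of them the removal of control library 2, day 7 library 1 or 2, or day 14 library 1 or 3 (edgeR adjusted p up to 0.176), and it was lost too with the length and GC correction (adjusted p = 0.0641). Bhlhe40 is known also as a gene induced by low oxygen. Of 12 tested genes of the hypoxia response, Pdk1 was called higher and Egln1 lower at day 7, where 30.6% of all genes were called. The median log2 change of the list was −0.05, and both calls were lost when gene length and GC content were corrected for.

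Bhlhe41 (ENSMUSG00000030256, chromosome 6, 145858243 to 145865558, minus strand) varied least among the day 7 libraries. It measured 37.9, 32.3 and 33.4 CPM in controls, 52.1, 52.1 and 51.1 CPM at day 7 and 35.8, 35.9 and 30.6 CPM at day 14. Control and day 14 overlapped and day 7 was above both. It rose 1.497-fold (log2 0.58, SE 0.108, edgeR adjusted p = 0.000602), and the value was 0.35 (adjusted p = 0.0230) with the length and GC correction. From day 7 to day 14 it fell by 0.60 (SE 0.108, edgeR adjusted p = 0.00272). Per kb of exon, Bhlhe40 stood at a mean of 2.76 times the level of Bhlhe41 in controls, 3.64 times at day 7 and 3.87 times at day 14. The libraries ran from 2.08 to 3.43, 3.25 to 4.10 and 3.57 to 4.13. Day 7 overlapped both other groups, controls lay below day 14, and these ratios were not tested.

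Usp2 (ENSMUSG00000032010, chromosome 9, 44067021 to 44095627, plus strand), the ubiquitin-specific protease, measured 15.1, 15.1 and 22.3 CPM in control libraries 1 to 3, 60.7, 58.9 and 40.2 CPM at day 7 and 25.0, 18.2 and 14.0 CPM at day 14. All day 7 libraries were above all others, and the day 14 libraries spanned the controls. It rose 3.03-fold at day 7 (log2 1.60, SE 0.235, edgeR adjusted p = 0.000549) and fell by 1.48 on the log2 scale from day 7 to day 14 (SE 0.233, edgeR adjusted p = 0.00499). Among 8 ubiquitin-specific proteases tested, Usp2 included, 4 were called higher and 1 (Usp21) lower at day 7, where 30.6% of all genes were called. The median log2 change of the 8 was 0.35. The next smallest p-values in that list were those of Usp15 (0.46), Usp28 (0.85) and Usp1 (0.45), all log2 changes of smaller size than that of Usp2. Usp15 was −0.04 (adjusted p = 0.868) with the length and GC correction, and Usp1 lost its call on removal of day 7 library 2 or of control library 1 or 2 (edgeR adjusted p up to 0.101).

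Wee1 (ENSMUSG00000031016, chromosome 7, 110122046 to 110143286, plus strand), whose kinase product keeps CDK1 inactive until cells are ready to divide, had the widest spread among controls relative to its mean. It measured 4.45, 8.57 and 14.0 CPM in control libraries 1 to 3, 31.2, 31.0 and 24.1 CPM at day 7 and 11.8, 12.4 and 11.8 CPM at day 14. Control library 3 was above all day 14 libraries and control libraries 1 and 2 were below them, and day 7 was above everything else. The rise at day 7 was 3.18-fold (log2 1.67, SE 0.311, edgeR adjusted p = 0.00300). The fall from day 7 to day 14 was −1.26 on the log2 scale (SE 0.303, edgeR adjusted p = 0.0378). It was kept in 9 of 18 alternatives and lost without control library 2, any 1 of the day 7 libraries or any 1 of the day 14 libraries (edgeR adjusted p up to 0.145), and also with the length and GC correction (adjusted p = 0.0681).

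Genes of entry into mitosis, a process that WEE1 restrains, changed in the same libraries. Of 9 such genes tested, 5 were called higher (Ccnb1, Ccnb2, Plk1, Cdk1 and Cdc25c) and 2 lower (Pkmyt1 and Cdc25a) at day 7. Their median log2 change was 1.77, and 30.6% of all genes were called in that comparison. Ccnb1, a cyclin that activates CDK1, went from 0.176 ± 0.258 CPM in controls to 5.86 ± 1.08 CPM at day 7 and 0.916 ± 0.475 CPM at day 14 (means ± SD of 3 libraries). Ccnb2 rose by 2.69 (SE 0.452, edgeR adjusted p = 0.000359) and the mitotic kinase gene Plk1 by 2.27 (SE 0.406, edgeR adjusted p = 0.000447), while Pkmyt1, which encodes a kinase related to WEE1, was −0.57 (SE 0.153, edgeR adjusted p = 0.00868) on the log2 scale. Ccnb1, Ccnb2 and Plk1 were lower at day 14 than at day 7 past the threshold, Plk1 not without day 7 library 2 or day 14 library 2 or 3 (edgeR adjusted p up to 0.0954). Without day 7 library 2 the count called higher at day 7 was 3, where 3533 of 15804 genes were called in either direction. The part of dividing cells in the Wee1 result was not tested.

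**Figure D3:**
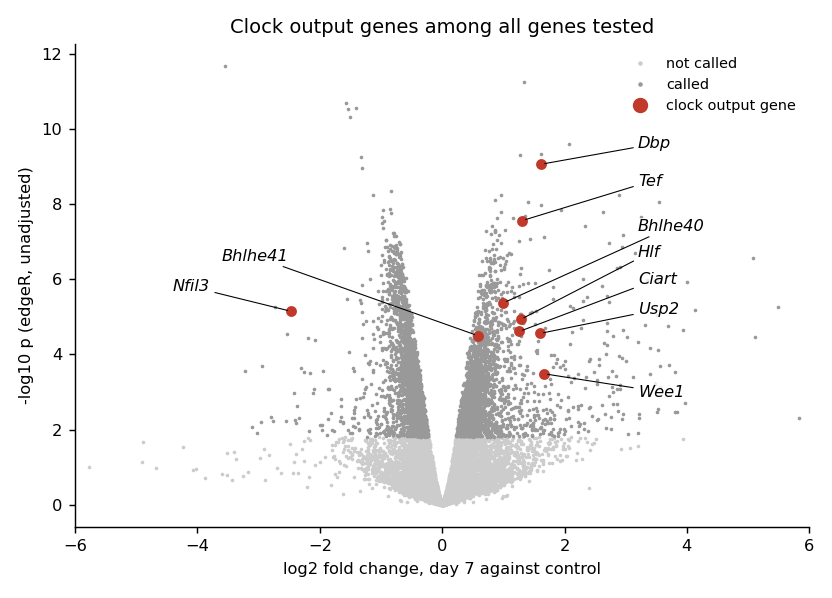
Log2 fold change of day 7 against control (horizontal) and −log10 of the unadjusted edgeR p (vertical) for the genes tested; red points are the 9 clock output genes, and 17 genes beyond a log2 change of 6 in size lie outside the axis. Dbp sits highest of the 9, at a log2 change of 1.62, and Nfil3 is the only 1 of them on the left, at −2.47.

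At day 14 none of the 9 genes was called against control, where 1.76% of all genes were (1.13% higher and 0.632% lower). In edgeR 3 of the 9 had an unadjusted p under 0.05 (Nfil3, Ciart and Bhlhe40). The share of all genes under that value was not computed, but Tef, at an edgeR unadjusted p of 0.0604, was only at rank 3598 of 15348. DESeq2 called 1 of the 9 and 1042 of all 15348 genes. With sample weights, limma-voom called 2 of the 9 and 1553 of all genes. The median log2 fold change of the 9 was 0.11, beside 0.01 over all genes. Nfil3 was the member whose groups did not overlap, as those of 23.1% of all genes did not (12.4% higher and 10.7% lower at day 14). Its log2 change was −0.95 (SE 0.276, 95% interval −1.56 to −0.34, edgeR adjusted p = 0.0911), and that of Bhlhe40 was 0.49 (SE 0.143, 95% interval 0.18 to 0.79, edgeR adjusted p = 0.0778). Without control library 3, Nfil3 (−1.19), Bhlhe40 (0.62) and Wee1 (0.86) passed the threshold, as did 1937 of all 15758 genes tested then. A p that misses the threshold does not show that a gene was back at its control level: the 95% interval was −0.25 to 0.21 for Bhlhe41 and −0.20 to 0.35 for Dbp, but −0.01 to 0.54 for Tef, −0.08 to 0.85 for Hlf, −0.41 to 0.64 for Usp2 and −0.30 to 1.11 for Wee1.

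From day 7 to day 14, 8 of the 9 genes fell and Nfil3 rose past the threshold, in a comparison in which 6.59% of all genes were called, 3.72% higher and 2.87% lower. The groups did not overlap for any member, which held for 29.4% of all genes (15.9% with day 14 higher and 13.5% with day 14 lower). The median log2 change was −1.04, beside 0.00 over all genes. The calls of Dbp, Tef, Ciart, Bhlhe41 and Usp2 were kept in all 18 alternatives. Without day 7 library 2 the 9 calls became 5, where 330 of 15804 genes were called. The comparisons share the control or the day 7 libraries, so each gene is best read from its levels: the log2 distance from control left at day 14, as a share of that at day 7, was 4.85% for Dbp, 7.19% for Usp2, 20.1% for Tef, 24.4% for Wee1, 29.7% for Hlf, 38.6% for Nfil3 and 48.9% for Bhlhe40. For Ciart and Bhlhe41 the day 14 mean was on the other side of control, at −52.5% and −3.42%. In the test of any difference among the 3 groups all 9 were called, against 25.4% of all genes.

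**Figure D4:**
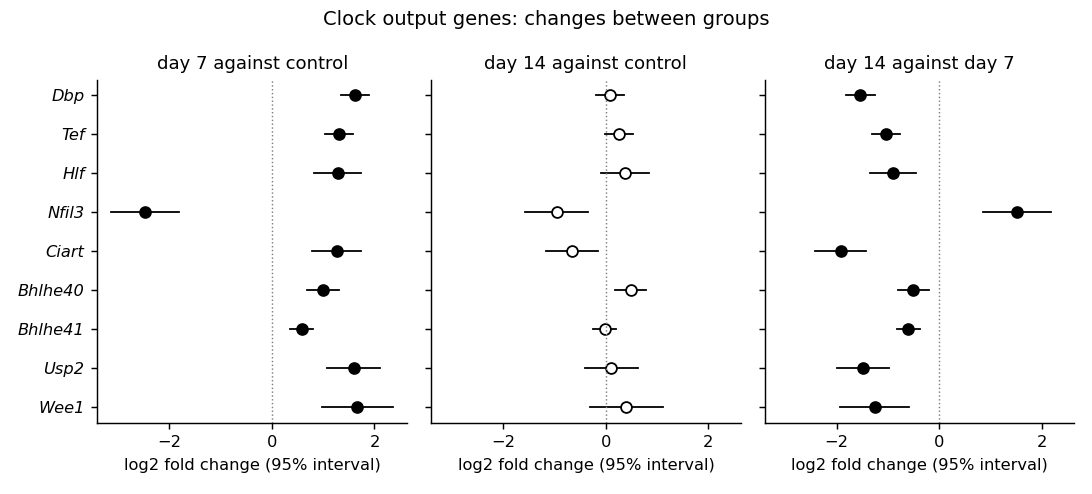
Log2 fold changes of the 9 genes (horizontal axis) in the 3 comparisons, with 95% intervals; filled points passed an adjusted p of 0.05 in edgeR and open points did not. The points at day 7 lie right of 0 except that of Nfil3 (−2.47), and those of day 14 against control are all open.

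Within the day 7 group the genes that rose shared their lowest library. Day 7 library 3 was the lowest of its group for 8 of the 8 genes that rose, and day 7 library 1 was the highest for 5 of them. At day 14 library 3 was the lowest for 6 of the 8 and library 1 the highest for 5. Among controls there was no common order, with library 3 the highest for 4 and library 1 the lowest for 4. The share of all genes with the same order of libraries was not computed. These counts therefore do not show an order particular to the clock output genes.

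Per kb of exon, Dbp led in every group, at 24.7 CPM per kb in controls, 75.8 at day 7 and 26.1 at day 14. In controls Nfil3 came next (17.2), then Tef (16.1), Bhlhe40 (14.1), Bhlhe41 (5.14), Usp2 (3.64), Ciart (2.90), Wee1 (2.64) and Hlf (0.792). Dbp overlapped Nfil3, Nfil3 overlapped Tef and Tef overlapped Bhlhe40 there, as did Usp2 with Ciart and Ciart with Wee1, so these neighbours in the order were not separated by their libraries. At day 7 Tef (39.8) and Bhlhe40 (28.1) followed Dbp, and Nfil3 dropped to the next to last place at 3.11, where its range overlapped that of Hlf (1.93). At day 14 Bhlhe40 (19.7) and Tef (19.3) followed Dbp, and Nfil3 stood at 8.90.

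The core loop, upstream of these genes in the scheme above, was read in the same libraries, and its part in their changes was not tested. Of 12 core genes tested, 4 were called higher (Cry2, Nr1d2, Per2 and Per3) and 3 lower, among them Arntl and Npas2, at day 7. The other 5 were not called. Their median log2 change was 0.34, and 30.6% of all genes were called in that comparison. Arntl, which encodes BMAL1, went from 12.4 ± 0.767 CPM in controls to 1.05 ± 0.208 CPM at day 7 and 9.29 ± 1.06 CPM at day 14 (mean ± SD, n = 3). Nr1d2, which encodes the repressor REV-ERB beta, rose by 1.29 and Cry2 rose by 0.53 at day 7 on the log2 scale. At day 14 Cry2 was below control (log2 −0.46, SE 0.102, edgeR adjusted p = 0.0335), and the call was lost on removal of control library 1 or 2 or of any 1 day 14 library (edgeR adjusted p up to 0.104). Over the 8 lists of pathway genes examined, 76 genes without the 9 members, 31 were called at day 7 (40.8%, beside 30.6% of all genes), 1 at day 14 against control (Cry2, 1.32% beside 1.76%) and 15 between the 2 times (19.7% beside 6.59%). Without control library 3 the count at day 14 against control was 15, with 12 higher and 3 lower, where 1937 of 15758 genes were called. Between the 2 times it was 8 without day 7 library 2 or day 14 library 2 and 9 without day 14 library 3. Over all genes, 330 of 15804, 436 of 15822 and 564 of 15753 were called in those settings.

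Of 7 targets of the PAR bZip factors known from mouse tissues, 4 were high enough to test in this gland, and Alas1, which encodes the first enzyme of haem synthesis, was the 1 called, where 30.6% of all genes were. Without day 7 library 2, 2 of the 4 were called higher at day 7 and 2 lower between the times. Of the 15804 genes tested then, 3533 and 330 were called in those comparisons. Alas1 rose from 64.7 ± 4.87 CPM in controls to 127 ± 12.1 CPM at day 7 (log2 0.97, SE 0.0983, edgeR adjusted p = 5.61e-06) and was 69.4 ± 2.88 CPM at day 14 (mean ± SD, n = 3). The 3 others tested, Cyp2a5, Por and Abcb1a, had log2 changes of 0.88, −0.11 and 0.72 with edgeR adjusted p of 0.214, 0.492 and 0.412.

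Other genes that cycle in many mouse tissues were called at about the rate of all genes (30.6%). Of 19 tested, 5 were called higher (Alas1, Cpt1a, Nampt, Rbm3 and Klf9) and 2 lower (Hspa8 and Pnpla2) at day 7, with a median log2 change of 0.26. Besides Alas1, Cpt1a, which encodes an enzyme that brings fatty acids into mitochondria, rose by 0.69 (SE 0.117, edgeR adjusted p = 0.000348), and the chaperone gene Hspa8 fell by 0.64 (SE 0.0904, edgeR adjusted p = 7.15e-05). Herpud1, a gene of protein quality control at the endoplasmic reticulum, passed the threshold between the 2 times and not against control (log2 −0.49, SE 0.110, edgeR adjusted p = 0.0122). That call was lost without day 7 library 2 or day 14 library 3 (edgeR adjusted p up to 0.0604). The count called higher at day 7 was 3 when library 1 or 2 of either the control or the day 7 group was left out. Over all genes, 3106 to 3533 were called in those settings.

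Of 10 kinases and ubiquitin ligases that act on clock proteins, 4 were called higher at day 7, with a median log2 change of 0.16. Of all genes 30.6% were called in that comparison, 15.8% higher. Prkaa1, which encodes a subunit of AMP-activated kinase, rose by 0.72 (SE 0.168, edgeR adjusted p = 0.00343) on the log2 scale. The calls of Gsk3b (0.47) and Prkaa2 (1.10) were lost in 5 and 12 of the 18 alternatives, among them the removal of library 1 or 2 of either group. Of 9 glucocorticoid-responsive genes tested, Klf9 was called at day 7 (log2 1.51, SE 0.357, edgeR adjusted p = 0.0203), where 30.6% of all genes were. The Klf9 call was also lost when library 1 or 2 of either group was left out (edgeR adjusted p up to 0.0716). Fkbp5, Per1 and Sgk1 of that list had log2 changes of −0.32, 1.05 and 0.93 with edgeR adjusted p of 0.370, 0.132 and 0.0954, and the median of the list was 0.13.

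Genes whose pattern over the 9 libraries was most like that of Dbp were ranked among 10121 genes by the root mean square distance of their centred log2 CPM. Usp2 was at 0.208, Tef at 0.253, Hlf at 0.345, Ciart at 0.375, Bhlhe40 at 0.456, Wee1 at 0.468 and Bhlhe41 at 0.484, against a median of 0.775 over all ranked genes, and Nfil3 was at 1.76. Outside the list the nearest genes were Fbxo10 (0.153), Ctnnal1 (0.273), Piezo1 (0.298), Hykk (0.327) and Alas1 (0.342). Fbxo10 went from 13.3 ± 1.71 CPM in controls to 35.0 ± 4.01 CPM at day 7 and 14.7 ± 1.79 CPM at day 14 (mean ± SD, n = 3). The genes nearest to Nfil3 were H2-Eb1 (0.475), H2-Ab1 (0.488), Trp53i11 (0.488), H2-Aa (0.495) and Cd74 (0.511), against a median of 1.08. H2-Ab1 measured 92.4 ± 3.90, 31.2 ± 5.17 and 76.5 ± 3.25 CPM in control, day 7 and day 14. H2-Eb1, H2-Ab1, H2-Aa and Cd74, genes of MHC class II antigen presentation, were not among the immune markers above. Their log2 changes at day 7 were −1.54, −1.57, −1.50 and −1.41, each called in all 18 alternatives. They were picked for likeness to Nfil3, so a fall at day 7 was built into the choice. The part of immune cells in these changes was not tested. The distances rest on 9 libraries that share the group differences, and they are a description.

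**Figure D5:**
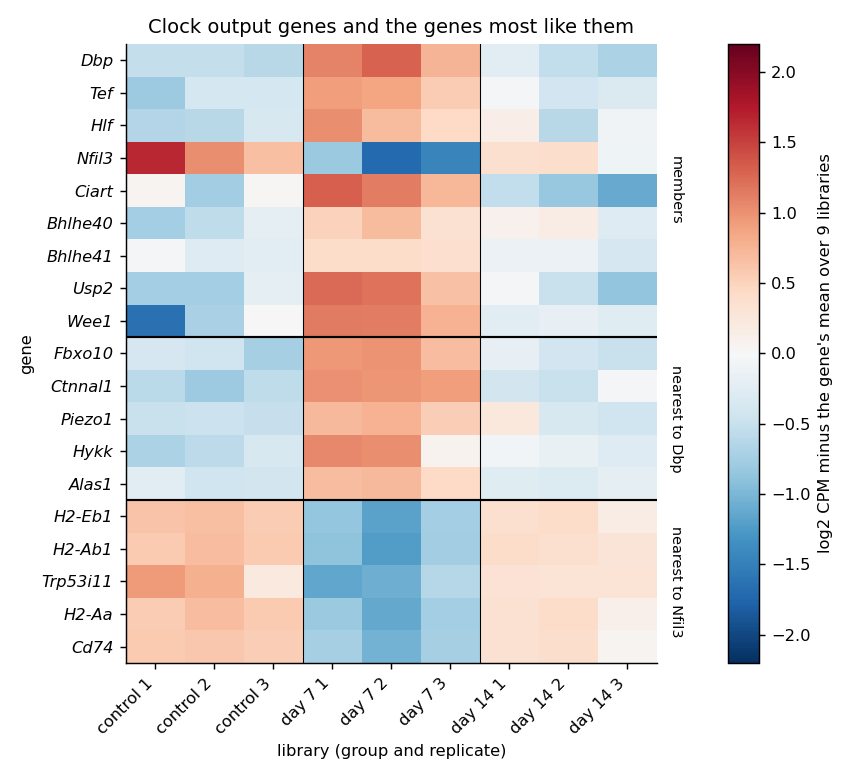
Log2 CPM of each gene minus its mean over the 9 libraries (colour), with libraries in columns and, in rows, the 9 clock output genes, the 5 genes nearest to Dbp and the 5 nearest to Nfil3. The day 7 columns are above the mean for 8 of the 9 clock output genes and below it for Nfil3 and its 5 nearest genes.

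Other cell type markers gave the following ranges of summed CPM in control, day 7 and day 14 libraries. Acinar markers fell at day 7, with all but Galnt12 of the 6 called lower. Over all genes 30.6% were called at day 7, 15.8% higher and 14.8% lower. Duct markers ran from 274 to 292, 253 to 332 and 196 to 263 CPM, with Scnn1a and Kit of 6 called higher and Ascl3 lower at day 7. Endothelial markers ran from 330 to 372, 410 to 493 and 391 to 433 CPM and fibroblast markers from 291 to 318, 326 to 398 and 323 to 431 CPM, each with 2 of 5 called higher at day 7 (Vwf and Tek, Col1a1 and Col3a1). Basal and myoepithelial markers ran from 810 to 936, 871 to 1038 and 909 to 995 CPM, with 1 of 6 (Myh11) called higher at day 7, and Schwann and nerve markers from 72.7 to 82.7, 53.1 to 63.0 and 62.3 to 70.3 CPM, with 1 of 4 (Sox10) called lower. Markers of submandibular granular duct, the neighbouring gland, ran from 195 to 277, 238 to 266 and 219 to 247 CPM, with Egf of 5 called higher and Klk1b9 and Klk1b24, kallikreins with near-identical copies whose counts are uncertain, lower at day 7. Control library 3 held the highest of these sums (277 CPM), beside 195 and 200 CPM in control libraries 1 and 2. Adipocyte markers ran from 11.1 to 18.3, 9.12 to 14.5 and 8.82 to 52.1 CPM. Lymph node markers were at most 0.978 CPM in sum, with Ccl21a and Ccl19 at 0. The part of a changed mix of cells in the changes of the clock output genes was not tested.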

How the data were processed

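RNA-seq was run on 9 mouse sublingual gland libraries, 3 a group. The deposited tables hold whole-number read counts per gene without normalisation. The submitters' processing notes name mm10, the aligner STAR, the counter featureCounts and DESeq2; no source used here gives their versions, the annotation or the strand setting. Identifiers were matched to GENCODE M21 (54495 of 54532). All libraries counted as separate samples: between pairs in a group the chi-square statistic was 9.19 to 124 times its degrees of freedom. The highest values were those of control library 3 against control library 1 (124) and control library 2 (86.9). Control libraries 1 and 2 gave 14.6, and the other groups gave at most 28.6. The floor of 3 counts covers counting error only, and the 95% intervals of fold changes come from edgeR and include the spread between libraries.

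edgeR 4.0.16 in R 4.3.3 was used with filterByExpr (39184 genes removed), TMM and the robust quasi-likelihood F test, two-sided, on 9 libraries in 3 groups with 6 residual degrees of freedom. P-values were adjusted by Benjamini-Hochberg over 15348 genes in each comparison (threshold 0.05). The biological coefficient of variation was 16.1%. Steps were tested on simulated data. Levels per kb used the union of exons. The members, gene lists and tests were chosen with earlier results of these data known. Named genes were the 9 members, up to 4 genes a list with the smallest p in the test of any difference, and the 5 nearest genes of at least 5 CPM to Dbp and to Nfil3. Other genes that were called in a list, and Cd3e, Cd3d, Galnt12, Ccl21a and Ccl19 among the markers, were named after their values were seen. A few genes of the lists enter the counts and are not reported here. Alternatives were DESeq2 size factors, TMM without the 20 most abundant genes, no filter, 1 CPM in 3 libraries, DESeq2 1.42.0, limma-voom (limma 3.58.1) with sample weights, only the 6 libraries compared, a replicate block, offsets for length and GC content (mgcv 1.9.3) and each library left out.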

Additional observations from a re-analysis of the deposited data

Results flagged for a closer look

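For each of the 9 clock output genes the change from control differed between day 7 and day 14, by the edgeR test of the difference itself. Of the 18 alternatives, the call was kept in 9 for Wee1, 11 for Bhlhe40, 14 for Nfil3 and 15 for Hlf, and in all 18 for the others. Both changes use the same control libraries, so the difference is that of day 14 against day 7. On the log2 scale, day 14 minus day 7 was −1.54 for Dbp, −1.04 for Tef, −0.90 for Hlf, 1.52 for Nfil3, −1.92 for Ciart, −0.51 for Bhlhe40, −0.60 for Bhlhe41, −1.48 for Usp2 and −1.26 for Wee1. In each case the 3 day 14 libraries lay on one side of the 3 day 7 libraries. With 3 libraries a group, no single library was tested for standing apart within its group.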

How the results depend on the processing

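Calls of the 9 genes against control at day 7 were 9 in all 18 alternatives, and those of any difference 9 in all 17. At day 14 against control the count, 0 as reported, was 2 without the low-count filter, 1 with DESeq2, 2 with limma-voom, 1 with the replicate block and 0 to 3 with a library left out. Between day 14 and day 7 it was 9 as reported and 5 to 9 with a library left out. Over all genes, day 14 against control gave 270 calls as reported, 1300 without the filter, 1042 with DESeq2, 1553 with limma-voom, 157 with the 6 libraries alone, 113 with the block, 142 with the length and GC correction and 13 to 1937 with a library left out. Day 14 against day 7 gave 1011 as reported, 1588 with limma-voom and 330 to 1415 with a library left out; day 7 gave 4692 and 3106 to 5314, and any difference 3893 and 2542 to 4774. With the length and GC correction the share of calls that were higher went from 51.6% to 39.9% at day 7 and from 64.1% to 47.9% at day 14. Direction changed, with no call, in day 14 against control for Bhlhe41 (0.0197 with limma-voom, −0.0910 to 0.0539 with a library left out), Usp2 (−0.127 to 0.299) and Dbp (−0.0565 to 0.176), the last 2 with a library left out, and at day 7 for Usp15 (−0.0351 with the length and GC correction). The cause of these shifts was not tested. Deviations of same-numbered libraries correlated between −0.112 and 0.0367, and those of unlike-numbered libraries between −0.09 and 0.158. No pairing by replicate number was seen, but with 3 libraries a group these values cannot exclude one. With the replicate block, Nfil3 was called at day 14 (−0.90, adjusted p = 0.0278), and Bhlhe40 (adjusted p = 0.0762) and Wee1 (adjusted p = 0.0666) were not called between the times, 7 of 9 remaining. The 3 PAR bZip targets left out by the low-count filter were not tested, and 2 of them had no read in any library.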
